A study of Mus musculus with 12 samples.

Results

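The complement genes of the C57MG mouse mammary epithelial cell line were examined after exposure of the cells to Rspo2, a secreted R-spondin that amplifies Wnt signalling, to Wnt3a, or to both. The set was selected by gene symbol and comprised 9 genes: C3, C1r, C1s, C2, C4b, Cfb, Cfp, Serping1 and Cd55, of 21307 genes with a symbol on the array. These genes were covered by 15 distinct probes, of which 9, representing 7 of the genes, were detected, meaning that the scanner software marked the probe as well above background in all 3 samples of 1 group or more. Cfb and Cd55 had no detected probe. The cells were held for 24 h in plain DMEM without the serum and insulin of the growth medium. They received bovine serum albumin (BSA, the vehicle), 100 ng/ml recombinant human Rspo2, 100 ng/ml recombinant mouse Wnt3a, or 100 ng/ml of each protein. Each of the 4 groups had 3 monolayers, and each monolayer was hybridised to its own single-colour array, so that p-values measure the spread between monolayers of this line. The 75th percentile of the signal ranged from 774 to 1146 intensity units among the 12 arrays, and between 51.3% and 64.2% of the probes were well above background. The number of arrays, 3 per group, limited the precision of every value.

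Complement is a cascade of plasma and tissue proteins that tags surfaces for uptake or lysis. In the classical pathway the proteases C1r and C1s, carried by C1q, cleave C4 and C2 to form an enzyme that splits C3. The alternative pathway splits C3 through factor B (Cfb) and is stabilised by properdin (Cfp), while the C1 inhibitor (Serping1) and decay-accelerating factor (Cd55) hold the cascade in check. The liver supplies most circulating C3, but epithelial and stromal cells also make complement components, and their transcription is known to respond to inflammatory cytokines through C/EBP, NF-kappa-B and STAT factors.

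The RefSeq promoter table for GRCm38.p6 held an entry for 5 of the 9 genes (C3, C1r under its symbol C1ra, C1s under C1s1 with a pair of start sites, Cfp and Cd55). The 250 bases before the start are shown for C3 and for the protease genes C1r and C1s, which are among the components whose transcripts were lower after treatment. C3 lies at chr17:57228137-57228386 (minus strand), C1r at chr6:124512371-124512620 (plus strand) and C1s at chr6:124542360-124542609 (minus strand, the more upstream start), each read 5′ to 3′ in the direction of transcription. Capitals mark a match to the C/EBP motif TTGCNNAA on either strand.
C3: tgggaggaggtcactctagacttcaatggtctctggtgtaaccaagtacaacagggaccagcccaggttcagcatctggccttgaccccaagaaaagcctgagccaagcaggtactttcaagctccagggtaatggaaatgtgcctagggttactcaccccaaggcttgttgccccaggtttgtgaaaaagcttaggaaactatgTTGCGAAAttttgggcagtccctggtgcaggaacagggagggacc
C1r: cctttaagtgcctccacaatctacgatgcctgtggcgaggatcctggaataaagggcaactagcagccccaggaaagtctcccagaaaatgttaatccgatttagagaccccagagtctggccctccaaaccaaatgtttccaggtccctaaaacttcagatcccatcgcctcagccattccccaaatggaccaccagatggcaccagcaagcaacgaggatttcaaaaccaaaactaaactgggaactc
C1s: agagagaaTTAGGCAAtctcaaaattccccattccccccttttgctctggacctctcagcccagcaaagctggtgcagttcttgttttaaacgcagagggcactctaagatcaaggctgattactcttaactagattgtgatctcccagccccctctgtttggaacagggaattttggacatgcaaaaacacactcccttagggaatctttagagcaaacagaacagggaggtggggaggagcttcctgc
The match in C3 began 45 bases before the start, and that in C1s, on the opposite strand, 242 bases before it. In the 50 bases after the start, C1r held a further C/EBP match from base 17 and a match to the STAT motif TTCNNNGAA from base 33. Of the 6 promoters of the 5 genes, 3 held a C/EBP match and 1 a STAT match. Neither motif was found for Cfp, whose transcript was also lower after treatment, for Cd55 or for the other C1s start. Neither the interferon-stimulated response element, the NF-kappa-B consensus nor the Tcf/Lef motif CTTTGA occurred on either strand in the 6 promoters of these genes. Among all 32851 promoters of the table, of the same length, 10.8% held the C/EBP motif, 8.30% the STAT motif, 3.44% the interferon element, 8.46% the NF-kappa-B consensus and 16.0% the Tcf/Lef motif. These matches describe letters in the reference sequence and were not measured as binding.

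The arrays came from 3 slides, which only partly crossed the groups. On slide 1 were the BSA samples and the first Rspo2 replicate. Slide 2 carried the other Rspo2 samples (replicates 2 and 3) beside Wnt3a replicates 1 and 2, and slide 3 the last Wnt3a replicate beside all combination samples. The comparisons of Wnt3a and of the combination with BSA therefore shared no slide, and for them the slide and the treatment were separated only through a model term. The RNA came from whole monolayers, in which fewer cells of a type and less RNA per cell cannot be told apart.

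The label of an epithelial line was checked against markers. Of 11 epithelial genes, 5 were detected (Krt14, Krt8, Krt7, Krt5 and Cldn3), whereas Epcam and Cdh1, which define most epithelia, were not. Krt14, a basal and myoepithelial keratin, had the strongest signal of the list and was 1.24 higher in log2 units with the combination than with BSA (adjusted p = 8.3e-06; 1.13 under a slide term, adjusted p = 0.052). The summed signal of the 11 genes, in multiples of the 75th percentile of the array, lay between 10.3 and 10.7 in the BSA samples. It lay between 9.83 and 12.3 after Rspo2, 15.3 and 17.0 after Wnt3a, and 22.6 and 26.0 after both. Krt14 supplied most of this sum. Its mean intensity was 10835 with BSA and 23730 with both, against 92.7 and 39.2 for Krt8. Krt8, a luminal keratin with a dim signal, changed the other way, by -1.15 with both (adjusted p = 0.00037; -1.25 under a slide term, adjusted p = 0.15). Krt7, also a simple epithelial keratin, gave 0.37, 0.82 and 0.75 with Rspo2, Wnt3a and both (adjusted p = 0.26, 0.020 and 0.023). It was well above background on 1, 2, 3 and 3 arrays with BSA, Rspo2, Wnt3a and both. It passed the detection filter only through the Wnt3a and combination groups, where it was brightest. Its changes and p are therefore descriptions and not a test of a rise. A slide term gave Krt7 0.85 and 0.93 with Wnt3a and both (adjusted p = 0.45 and 0.49). Krt5, a basal keratin, gave -0.84, -0.57 and 0.22 (adjusted p = 0.021, 0.041 and 0.39), and -0.15 with Wnt3a under a slide term (adjusted p = 0.87). Neither Krt7 nor Krt5 was called against BSA. The interaction for Krt5 was 1.63 (adjusted p = 0.0075; 1.12 under a slide term, adjusted p = 0.18). Krt5 was well above background on 3, 1, 3 and 3 arrays with BSA, Rspo2, Wnt3a and both. Its mean intensity was 57.8 with BSA and 28.4 with Rspo2, so its Rspo2 change and interaction rest on a group near detection. The part of these markers in the complement results was not tested. Of 10 mesenchymal markers, 9 were detected, led by Acta2 and Vim. Of these only Pdgfra, a receptor for platelet-derived growth factor found on fibroblasts, was called, at -0.56, -0.81 and -1.37 with Rspo2, Wnt3a and both (adjusted p = 0.015, 0.00088 and 8.8e-06; -1.32 under a slide term with both, adjusted p = 0.046). Col3a1, a fibrillar collagen, gave -0.85 with both (adjusted p = 0.0016) and Acta2, smooth muscle actin, 0.78 (adjusted p = 7.3e-05). Pdgfrb and Dcn gave -0.60 and -0.90 with both (adjusted p = 0.0015 and 0.0050). Slide as a term took these 4 genes to -0.54, 0.63, -0.46 and -0.94 (adjusted p = 0.49, 0.16, 0.46 and 0.40). Vim, Col1a1, Col1a2 and Fn1 gave 0.17, -0.07, -0.19 and -0.32 with both (adjusted p = 0.13, 0.62, 0.13 and 0.22). The summed signal of the 10 mesenchymal genes lay between 408 and 413 in the BSA samples. It lay between 432 and 436 after Rspo2, 451 and 462 after Wnt3a, and 478 and 500 after both. The part of the mesenchymal markers was not tested either. Endothelial and adipocyte lists had 1 of 4 and 1 of 5 genes detected (Cdh5 and Fabp4). Cdh5, an endothelial cadherin, gave -0.41, -0.49 and -0.55 (adjusted p = 0.012, 0.0013 and 0.00026), and Fabp4, a fatty acid carrier of adipocytes, 0.41, 0.06 and -0.81 (adjusted p = 0.053, 0.75 and 0.00082). With slide as a term their combination changes were -0.66 and -1.26 (adjusted p = 0.096 and 0.049), and their part in the complement results was likewise not tested. Of 13 macrophage and leukocyte genes, 5 were detected (Cd14, Lyz2, Cd68, C1qb and Csf1r), and the defining genes Ptprc, Adgre1, Itgam and Fcgr1 were not.

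C3 fell with every treatment. C3 encodes the component on which the classical, lectin and alternative pathways converge. Its probe, printed in 10 spots on each array, was well above background on all 12 arrays, and the spots of 1 array varied by 3.34% to 7.80% (coefficient of variation). Its intensity was 2296, 2515 and 2465 in the BSA samples and 544, 482 and 342 with Rspo2. It was 272, 203 and 190.1 with Wnt3a and 110.0, 139 and 190.6 with the combination. Every treated sample lay below every BSA sample, every Wnt3a sample lay below every Rspo2 sample, and combination replicate 3 matched Wnt3a replicate 3 before scaling but not after it.

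**Figure D1:**
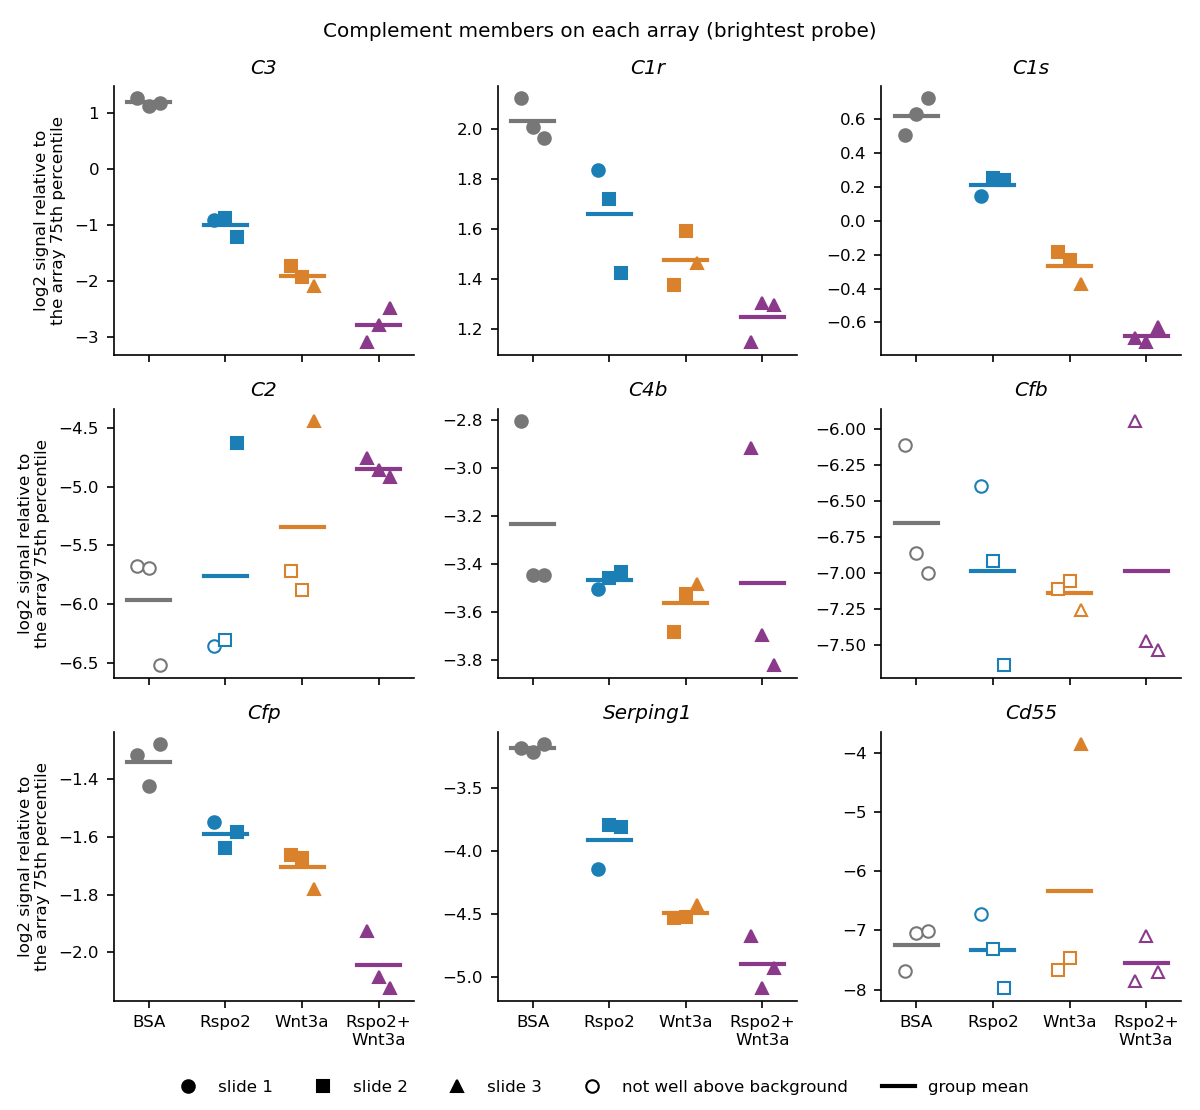
Log2 signal of the brightest probe of each of the 9 complement genes, relative to the 75th percentile of its array, in the 12 samples, with 1 panel per gene and its own vertical scale. Filled symbols are well above background, symbol shape gives the slide and bars are group means; C3, C1s, Cfp and Serping1 step down from BSA to the combination, whereas every symbol of Cfb is open.

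After scaling each array to its 75th percentile, C3 averaged 1.20 ± 0.07 log2 units with BSA, -0.997 ± 0.19 with Rspo2, -1.91 ± 0.18 with Wnt3a and -2.79 ± 0.31 with the combination (SD, n = 3 each). These means corresponded to 21.8%, 11.6% and 6.32% of the BSA level, a fall of 4.58-fold with Rspo2, 8.64-fold with Wnt3a and 15.8-fold with both. The log2 changes against BSA were -2.20 ± 0.16, -3.11 ± 0.16 and -3.98 ± 0.16 (SE; adjusted p from limma, 9.8e-05, 3.9e-06 and 7.6e-08). Among the probes that were lower and passed both thresholds, C3 had the tenth largest fall of 141 with Rspo2, and the sixth largest of 481 with Wnt3a and of 863 with the combination. In a fit with slide as a term the changes were -2.11, -2.90 and -3.60 (adjusted p = 0.0098, 0.0077 and 0.0030). Within slide 1, the single Rspo2 sample differed from the mean of the BSA samples by the same -2.11.

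The treated groups were also ordered among themselves. C3 was lower with Wnt3a than with Rspo2 by a log2 difference of -0.92 (adjusted p = 0.018) and lower with the combination than with Wnt3a alone by -0.87 (adjusted p = 0.0097), both short of 2-fold. Within slide 2 the first difference was -0.79, and within slide 3 the second was -0.70. Fitted with slide as a term, they had adjusted p = 0.13 and 0.26. Left out in turn, Rspo2 replicates 1 and 2 and Wnt3a replicate 2 took the adjusted p of the first difference to 0.079, 0.074 and 0.073. Without Rspo2 replicate 3 or Wnt3a replicate 1 it became -1.02 or -1.01, and without combination replicate 3 the second became -1.03, past 2-fold in each case. A second C3 probe was at 3.16 to 14.1 intensity units and well above background on none of the 12 arrays, so that C3 rested on a single probe sequence.

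The effect of Rspo2 on C3 depended on whether Wnt3a was present. Rspo2 lowered C3 by a log2 change of -2.20 without Wnt3a and -0.87 with it, and the interaction was 1.32 (95% confidence interval 0.83 to 1.81, adjusted p = 0.0086). Summed, the separate changes came to -5.31, against the -3.98 measured with both. Across the array, 1.27% of the 22750 detected probes had a positive interaction of at least 2-fold at this threshold. The interaction was 1.41 with an adjusted p of 0.10 once slide was a term in the fit. No interaction passed the test for the other detected genes of the set. The change with both and the sum were -1.30 and -1.29 for C1s, -0.70 and -0.61 for Cfp, -0.79 and -0.93 for C1r, -1.71 and -2.04 for Serping1, -0.25 and -0.56 for C4b, and 1.12 and 0.82 for C2. The 95% confidence interval of the interaction was -0.04 to 0.70 for Serping1 and -0.26 to 0.25 for the brighter C1s probe. The second C1s probe gave 0.64, with an interval of -0.0038 to 1.29, and 0.014 with slide as a term (adjusted p = 0.98).

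**Figure D2:**
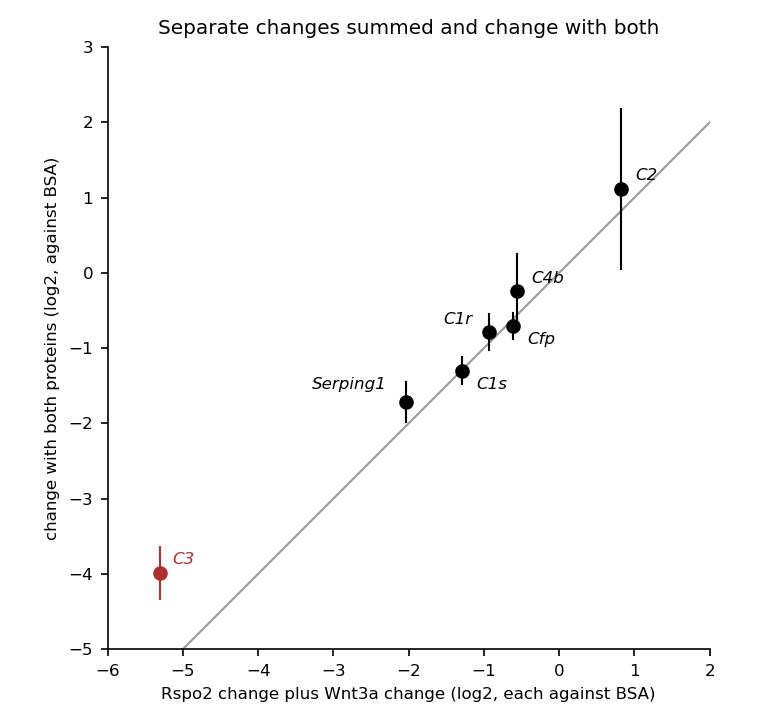
Change with both proteins (vertical axis) against the sum of the separate Rspo2 and Wnt3a changes (horizontal axis) for the 7 detected complement genes, in log2 units against BSA. Vertical bars are 95% confidence intervals of the change with both and the line marks equality; C3, in red, lies above the line at -5.31 and -3.98.

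C1r and C1s, the serine proteases of the C1 complex, were both lower. Their genes are neighbours on chromosome 6. The brighter C1s probe read 0.50, 0.63 and 0.72 log2 units with BSA, 0.14, 0.25 and 0.24 with Rspo2, -0.19, -0.23 and -0.37 with Wnt3a, and -0.69, -0.72 and -0.63 with both. The 4 groups did not overlap. C1s changed by -0.41 ± 0.08, -0.88 ± 0.08 and -1.30 ± 0.08 in these groups against BSA (SE; adjusted p = 0.017, 0.00011 and 1.5e-06), the last a fall of 2.46-fold. It was lower with Wnt3a than with Rspo2 by -0.48 (adjusted p = 0.019) and lower with both than with Wnt3a by -0.41 (adjusted p = 0.017). Within slides the corresponding differences were -0.48 for Rspo2 against BSA, -0.46 for Wnt3a against Rspo2 and -0.31 for both against Wnt3a. Under a slide term the adjusted p against BSA was 0.12, 0.027 and 0.010 in the same order, and those of the steps between treated groups were 0.079 and 0.32. The adjusted p with Rspo2 also rose to 0.057 without BSA replicate 3 and to 0.053 without Rspo2 replicate 3.

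The second C1s probe gave -0.42, -1.40 and -1.18 for the same comparisons (adjusted p = 0.17, 0.0014 and 0.0015). The probes disagreed on the step from Wnt3a to both, which was -0.41 for the brighter probe and 0.22 for the second (adjusted p = 0.62), but -0.31 and -0.37 with slide as a term. On the second probe Wnt3a replicate 3, on slide 3, read -1.64, above the -2.41 and -2.66 of the replicates on slide 2. C1s1 has a near-identical copy, C1s2, whose own probe was not detected. Whether these probes also read C1s2 was not tested.

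For C1r the brighter probe read 2.12, 2.01 and 1.96 log2 units with BSA, 1.84, 1.72 and 1.42 with Rspo2, 1.38, 1.59 and 1.46 with Wnt3a, and 1.14, 1.30 and 1.29 with both. The Rspo2 and Wnt3a samples overlapped, and all treated samples were below BSA. C1r changed by -0.37 (adjusted p = 0.044), -0.56 (adjusted p = 0.0045) and -0.79 (adjusted p = 0.00040), the last a fall of 1.72-fold. None reached 2-fold, and after a slide term they were -0.20, -0.28 and -0.50 (adjusted p = 0.50, 0.56 and 0.38). The second probe gave -0.14 (adjusted p = 0.52), -0.59 (adjusted p = 0.011) and -0.55 (adjusted p = 0.012), and with slide as a term -0.06, -0.64 and -0.91 (adjusted p = 0.85, 0.23 and 0.13). Each array left out in turn, the adjusted p of the Rspo2 change of the brighter probe was above 0.05 in 9 of 12 fits and reached 0.14. Both C1r probes were assigned to the current symbol C1ra, and whether they also read related transcripts was not tested.

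C4b and C2 supply the substrates that C1s cleaves, and with Cfb they lie on chromosome 17 in the major histocompatibility complex. C4b was well above background on all arrays. It read -2.81, -3.44 and -3.45 log2 units with BSA, -3.50, -3.46 and -3.43 with Rspo2, -3.68, -3.52 and -3.48 with Wnt3a, and -2.92, -3.69 and -3.82 with both. BSA replicate 1 and combination replicate 1 stood above the rest. No change in C4b passed the test: the estimates were -0.23, -0.33 and -0.25, with 95% confidence intervals of -0.73 to 0.27, -0.83 to 0.17 and -0.75 to 0.26. Without combination replicate 1 the last became -0.53 (adjusted p = 0.046), and without BSA replicate 1 the changes became -0.020, -0.12 and -0.033 (adjusted p = 0.96, 0.73 and 0.92). C4a, whose sequence is very close to that of C4b, had its own probe, which was not detected.

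C2 was the only detected gene of the set whose estimated changes were above 0, and none of them had an adjusted p under 0.05. It was well above background on 0 of 3 arrays with BSA, 1 with Rspo2, 1 with Wnt3a and 3 with both. Its intensity was 18.6, 22.2 and 11.7 with BSA, 12.5, 11.1 and 32.2 with Rspo2, 17.1, 13.2 and 37.1 with Wnt3a, and 34.9, 33.0 and 34.9 with both. The combination samples lay above every BSA sample, and Rspo2 replicate 3 and Wnt3a replicate 3 reached their level. Since C2 was not well above background in BSA, the combination was at least 1.14-fold higher, taking the lowest signal well above background on each array as the floor for BSA. C2 passed the detection filter only through the combination, the group where it was brightest, so this bound and every fitted change and p of C2 are descriptions and not a test of a rise. The fitted change, 1.12, had an adjusted p of 0.089 and a 95% confidence interval of 0.06 to 2.18. The slide term turned it to -1.13 (adjusted p = 0.61). The adjusted p was 0.030 without Rspo2 replicate 3, 0.010 with only the BSA and combination arrays fitted, and 0.045 for a change of 1.49 with quantile normalization. The second C2 probe was well above background on 2 of 12 arrays, 1 with BSA and 1 with both.

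In the alternative pathway, Cfp fell modestly and Cfb was below detection. Cfp, on the X chromosome, encodes properdin, which stabilises the alternative pathway convertase. It read -1.32, -1.43 and -1.28 log2 units with BSA, -1.55, -1.64 and -1.58 with Rspo2, -1.66, -1.67 and -1.78 with Wnt3a, and -1.93, -2.08 and -2.12 with both. The 4 groups did not overlap. The changes were -0.25 (adjusted p = 0.052), -0.36 (adjusted p = 0.0063) and -0.70 (adjusted p = 8.7e-05), or 84.2%, 77.7% and 61.5% of the BSA level. After a slide term they were -0.21, -0.27 and -0.53 (adjusted p = 0.37, 0.46 and 0.21). Cfp was lower with both than with Wnt3a by -0.34 (adjusted p = 0.035), and by -0.26 within slide 3. Under a slide term that difference had an adjusted p of 0.44. Without 1 array its adjusted p was above 0.05 in 8 of 12 fits and reached 0.15. Cfb, which encodes the protease of the alternative convertase, read 3.98 to 15.2 intensity units and was not well above background on any array, so its level could not be compared.

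Of the regulators, Serping1 fell in every treated group. Serping1, on chromosome 2, encodes the C1 inhibitor, which inactivates C1r and C1s. It read -3.18, -3.22 and -3.16 log2 units with BSA, -4.15, -3.80 and -3.81 with Rspo2, -4.53, -4.53 and -4.43 with Wnt3a, and -4.68, -5.09 and -4.93 with both. In intensity units the BSA samples were at 105 to 123 and the combination samples at 28.1 to 36.8, so the treated samples were dim although well above background. On the scaled log2 values the 4 groups did not overlap, whereas the unscaled Wnt3a and combination intensities did. Serping1 changed by -0.73 ± 0.12, -1.31 ± 0.12 and -1.71 ± 0.12 (SE; adjusted p = 0.0090, 1.0e-04 and 3.2e-06), that is, falls of 1.66-fold, 2.48-fold and 3.28-fold. A slide term gave changes of -0.96, -1.69 and -2.16 (adjusted p = 0.036, 0.010 and 0.0040). Within slides, Rspo2 was below BSA by -0.96, Wnt3a below Rspo2 by -0.73 and both below Wnt3a by -0.47. Its size varied with the background correction: with the local background subtracted and an offset of 50, a setting chosen after seeing the data, the changes were -0.33, -0.66 and -0.76 (adjusted p = 0.038, 0.00053 and 7.3e-05), none of them 2-fold. With the normexp background correction they were 0.10, -0.86 and -1.02 (adjusted p = 0.94, 0.46 and 0.29). The difference between both and Wnt3a was -0.40 (adjusted p = 0.096), and that between Wnt3a and Rspo2 was -0.58 (adjusted p = 0.041). The adjusted p of the latter was under 0.05 in 3 of the 12 fits without 1 array and reached 0.14 in the others.

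Cd55, on chromosome 1, encodes a membrane protein that speeds the decay of C3 convertases. Its 3 probes were not well above background in any sample, with 1 exception. That was Wnt3a replicate 3, at 55.8 intensity units on 1 probe, where the other 11 arrays gave 3.14 to 9.66. The other 2 probes read 6.01 and 4.26 in that sample.

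**Figure D3:**
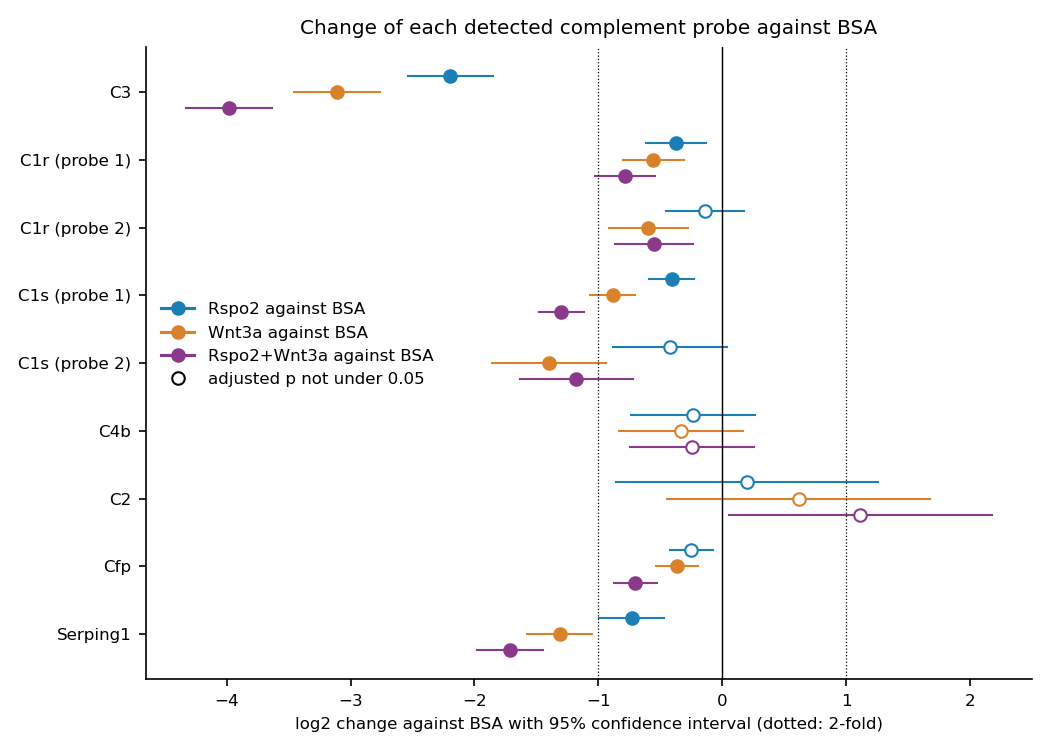
Log2 change against BSA of the 9 detected complement probes with Rspo2, Wnt3a and both, with 95% confidence intervals; filled points have an adjusted p under 0.05 and dotted lines mark 2-fold. C3 lies furthest from 0, at -2.20, -3.11 and -3.98, and C2 alone has estimates above 0.

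Counted by the brightest probe, with an adjusted p under 0.05 and a 2-fold or larger change required, 1 of 7 detected genes was lower with Rspo2 (C3), 2 with Wnt3a (C3 and Serping1) and 3 with the combination (C3, C1s and Serping1). None was higher. Over all 22750 detected probes, 0.62%, 2.11% and 3.79% were lower by the same rule, and 0.101%, 0.404% and 1.28% were higher. Without the 2-fold requirement, 4, 5 and 5 of the 7 genes were lower, against 5.93%, 13.2% and 17.3% of all detected probes. Between Wnt3a and Rspo2, and between the combination and Wnt3a, 3 genes each were lower at an adjusted p under 0.05, against 1.09% and 2.49% of probes; C3 and C1s were in both counts, Serping1 in the first and Cfp in the second. The median log2 change over the 7 genes was -0.37, -0.56 and -0.79 against BSA, whereas the median over all detected probes was 0.01, 0.00 and 0.04. The comparisons with BSA share the same control samples. With slide as a term the counts at 2-fold were again 1, 2 and 3, whereas those without the 2-fold requirement became 2, 3 and 3 against BSA, 1 between Wnt3a and Rspo2 (Serping1) and 0 between the combination and Wnt3a.

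The genes whose signal followed C3 most closely over the 12 arrays were Oas2, Col16a1, Tlr2, Lcn2 and Glg1, with Pearson coefficients of 0.989, 0.988, 0.987, 0.986 and 0.986. These coefficients describe 12 arrays that fall into 4 groups and share their scaling. Oas2, an interferon-induced oligoadenylate synthetase, gave log2 changes of -1.57, -2.34 and -3.24 with Rspo2, Wnt3a and both. Lcn2, which encodes the siderophore-binding protein lipocalin 2, gave -4.34, -5.89 and -7.31. With both, Lcn2 averaged -5.37 log2 units. The lowest signal well above background on the combination arrays was -5.63 to -5.51, so the last change was measured near that floor. Tlr2, a receptor for bacterial lipoproteins, gave -0.92, -1.16 and -1.35. Col16a1, a collagen gene, gave -0.63, -0.91 and -1.30, and Glg1, which encodes a Golgi glycoprotein, -0.52, -0.79 and -1.0001. Within the set the coefficient with C3 was 0.957 for Serping1, 0.955 for C1s, 0.944 for C1r and 0.908 for Cfp, but 0.324 for C4b and -0.60 for C2.

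Other complement genes were mostly not expressed at a detectable level, and those that were did not all fall. Of 51 further complement genes examined, 14 were detected. With Rspo2 none was called in either direction, with Wnt3a 0 were lower and 1 was higher, and with the combination 3 were lower and 1 was higher. Over all detected probes 3.79% were lower and 1.28% higher with the combination, and 2.11% and 0.404% with Wnt3a. The median log2 change of the 14 was 0.0018, -0.11 and 0.05. In the recognition list, 4 of 13 were detected (C1qb, Fcna, Colec12 and Ptx3) and none was called; Ptx3, a soluble pattern recognition protein with the strongest signal of that list, gave -0.29, 0.08 and 0.18. C1qa and C1qc, partners of C1qb in the C1q molecule, were not detected.

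Of the further proteases, 3 of 8 were detected, and Masp1, a protease of the lectin pathway, fell with the combination by a log2 change of -1.62 (adjusted p = 1.9e-05) after -0.31 with Rspo2 and -0.85 with Wnt3a. C1rl, which resembles C1r and had no call, gave 0.57, -0.01 and -0.20. Of C4a and the terminal components, only C8g was detected, at 0.74, 0.09 and -0.56, none past 2-fold. After a slide term Masp1 with the combination gave -1.20 (adjusted p = 0.12).

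The fluid-phase regulators that were detected, 2 of 5, were both lower with the combination. Clu, which encodes clusterin, an inhibitor of the terminal complex, changed by -0.03, -0.65 and -1.39 with Rspo2, Wnt3a and both (adjusted p = 0.88, 0.0018 and 5.2e-06). Cfhr2 changed by 0.06, -0.27 and -1.12 (adjusted p = 0.68, 0.038 and 6.9e-06). Cfhr2 belongs to a family of similar sequences, and whether its probe reads related transcripts was not tested. After a slide term the combination gave -1.36 for Clu and -0.97 for Cfhr2 (adjusted p = 0.034 and 0.051). Unlike C3, both genes fell by more with both proteins than the separate changes added up to: the interaction was -0.72 for Clu and -0.91 for Cfhr2 (adjusted p = 0.019 and 0.0028). Over all detected probes, 5.31% had a negative interaction at an adjusted p under 0.05. The interactions under a slide term were -0.63 and -0.87 (adjusted p = 0.24 and 0.078).

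Of 7 other membrane regulators only Cr1l, the mouse convertase inhibitor Crry, was detected, at 0.32, 0.30 and 0.55, with no call. Of 10 receptors, 3 were detected. C5ar2, a receptor for the fragment C5a, rose by 1.33 with Wnt3a and 1.87 with both (adjusted p = 0.0023 and 0.00016), and gave 0.55 with Rspo2 (adjusted p = 0.11). Its mean was -3.90 ± 0.19 log2 units with BSA and -2.03 ± 0.09 with both (SD, n = 3), and with a term for slide the Wnt3a and combination changes were 1.37 and 2.14 (adjusted p = 0.22 and 0.094), neither called. C1qbp, a mitochondrial protein that binds C1q and had the strongest signal of the receptor list, gave 0.18, 0.31 and 0.19. Itgb2, the shared chain of leukocyte integrins that include complement receptor 3, gave -0.37, -0.87 and -0.97 (adjusted p = 0.083, 0.0017 and 0.00040; under a slide term -0.77 with Wnt3a and -0.96 with both, adjusted p = 0.26 and 0.21), short of 2-fold.

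**Figure D4:**
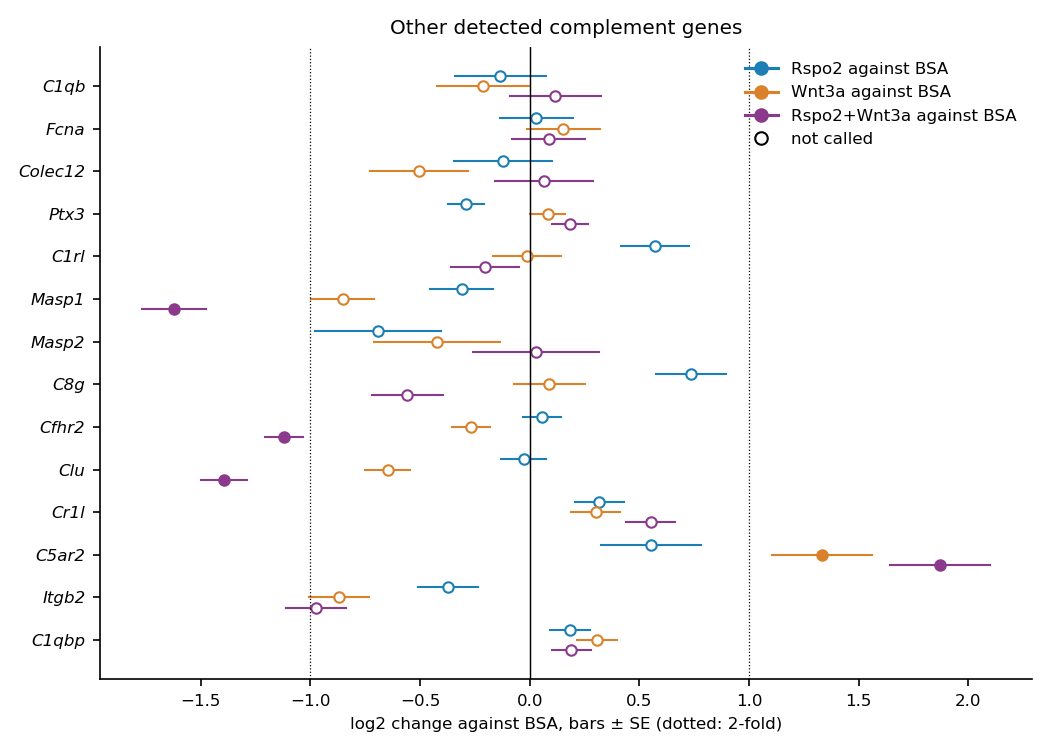
Log2 change against BSA, ± SE, of the 14 detected complement genes outside the set with Rspo2, Wnt3a and both; filled points passed an adjusted p under 0.05 and 2-fold, and dotted lines mark 2-fold. The filled points are Masp1, Cfhr2 and Clu on the left, with the combination only, and C5ar2 on the right.

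Genes known to drive complement transcription were examined as a list. All 14 transcription factors were detected, and 0, 3 and 5 of them were lower with Rspo2, Wnt3a and both, with none higher. Over all detected probes 0.62%, 2.11% and 3.79% were lower by the same rule. Stat2 (-1.11 and -1.45), Irf7 (-1.34 and -1.85) and Irf9 (-1.001 and -1.61), which carry interferon signals, were called with Wnt3a and with both. Under a slide term their Wnt3a changes were -0.96, -1.41 and -0.98 (adjusted p = 0.091, 0.072 and 0.025), so that none remained called. Nfkbiz, a co-regulator of NF-kappa-B, and Cebpd, a C/EBP factor, were called with both, at -1.63 and -1.08. Cebpb, the uncalled factor with the strongest signal, gave -0.24, -0.42 and -0.86. The median over the 14 was -0.45, -0.62 and -0.77. Under a slide term the combination gave -1.03 for Stat2 (adjusted p = 0.094), -2.10 for Irf7 (adjusted p = 0.021), -1.50 for Irf9 (adjusted p = 0.0054), -1.39 for Nfkbiz (adjusted p = 0.013) and -1.31 for Cebpd (adjusted p = 0.021).

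All 10 cytokine receptors were detected, and Osmr, a receptor for oncostatin M, was the only called member, at -1.20 with both (adjusted p = 1.4e-06; with a term for slide -1.19, adjusted p = 0.0069). Ifngr1, the uncalled receptor with the strongest signal, gave 0.01, 0.05 and -0.05. Of 9 cytokines, Il6, Il11 and Csf1 were detected and none was called against BSA. Csf1 gave -0.33, -0.19 and -0.16, and Il11 0.14, 0.72 and 0.78 (adjusted p = 0.60, 0.012 and 0.0059). Il11 was well above background on 0, 1, 2 and 3 arrays with BSA, Rspo2, Wnt3a and both. It passed the detection filter only through the combination, where it was brightest. Its changes and p are therefore descriptions and not a test of a rise. A slide term gave Il11 0.42 with Wnt3a and 0.34 with both (adjusted p = 0.62 and 0.76). Il6, singled out after its values were seen, encodes a known inducer of C3. It gave -0.78, -0.66 and -0.21 (adjusted p = 0.0023, 0.0010 and 0.10), with an interaction of 1.24 (adjusted p = 0.00082). Under a slide term its Wnt3a change was -0.84 (adjusted p = 0.072) and the interaction 1.24 (adjusted p = 0.024). Il1a, Il1b, Tnf, Ifnb1 and Ifng were not well above background on any array.

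Macrophages, which make several complement components, had a marker list whose summed signal moved with the combination. In multiples of the 75th percentile of the array, the sum over the 13 genes was 7.48, 8.28 and 7.65 with BSA, 8.81, 9.35 and 9.68 with Rspo2, 7.12, 7.62 and 7.71 with Wnt3a, and 5.74, 5.32 and 5.07 with both. Cd14 was its most abundant gene, at 0.21, -0.20 and -0.79 against BSA (adjusted p = 0.12, 0.12 and 1.0e-04). Lyz2, the next most abundant, gave 0.42, 0.43 and 0.09 (adjusted p = 0.0096, 0.0017 and 0.31), and Ptprc was well above background on 1 of 12 arrays. With slide as a term Cd14 gave -1.02 with both (adjusted p = 0.043), past 2-fold. Lyz2 gave 0.42 with Wnt3a in that fit (adjusted p = 0.21). With Rspo2 the sum was above BSA in every sample. Csf1r, a dim marker, gave -0.19, -0.33 and -0.75 (adjusted p = 0.59, 0.29 and 0.022). A slide term gave Csf1r -0.72 with both (adjusted p = 0.44). Cd68 gave 0.34, 0.15 and -0.23 (adjusted p = 0.087, 0.40 and 0.17), and C1qb -0.13, -0.21 and 0.12 (adjusted p = 0.68, 0.47 and 0.69). The part of these markers in the fall of the complement genes was not tested.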

How the data were processed

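RNA from 12 C57MG monolayers was labelled with a single dye and hybridised to Agilent Whole Mouse Genome 4x44K arrays. The authors scanned them and deposited Agilent Feature Extraction output (version 9.5.3.1 per the submitters' processing notes), in which the processed signal is an intensity after background subtraction and detrending, together with mean and local background intensities. The authors also deposited a table of normalized ratio values, which matched these signals divided by the 75th percentile of each array; its median ratio per array was 0.05 to 0.08. No direction or centring was left unknown for these single-colour values. A workbook of the authors' own fold changes and p-values was not used.

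Groups were taken from the sample labels. The complement genes and all gene lists were chosen with earlier results of these data known, so their counts are descriptions. Control spots and spots marked as uneven or outlying (1327 of 520548 values) were left out, spots of a probe were averaged, and log2 of the processed signal minus the log2 75th percentile of the array was analysed. A probe was kept when all 3 samples of 1 group or more were marked well above background (22750 of 41174). A single further complement gene was left out of the lists and is not reported here; the others are. A gene is represented by its probe with the highest mean signal. Names came from the gene name column, with older symbols updated through RefSeq (34730 probes had a symbol). The probe coordinates in the files name no build and are not printed. No member value was saturated.

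All 12 arrays were fitted with 1 mean per group in limma 3.58.1 (lmFit, contrasts.fit, eBayes; R 4.3.3), and p-values were adjusted by Benjamini-Hochberg over all detected probes; every adjusted p in the text is from this or the named alternative fit. A gene was called at an adjusted p under 0.05 and at least 2-fold. The interaction is the change with both proteins minus the sum of the separate changes. The fits were tested on simulated data. Alternatives were normexp (offset 50), quantile, median and other percentile scaling, the authors' table, other probe filters, the methods' t-test, slide or replicate number as a term, fewer arrays and each array left out. Subtraction of the local background with an offset of 50 was added after seeing the data. Named genes included the 9 members, every listed gene called against BSA with the strongest uncalled gene of each role, and the 5 genes most correlated with C3. Other listed genes were named outside this rule, among them Itgb2, Il6, Il11, Krt5, Krt7, Col3a1, Pdgfrb, Dcn and Lyz2. Promoters came from RefSeq (GRCm38.p6); planned protein comparisons were not made. Tables were handled in Python 3.11.15 with pandas 2.3.3.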

Additional observations from a re-analysis of the deposited data

Results flagged for a closer look

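The interaction of Rspo2 with Wnt3a passed the test for C3 at 1.32 log2 units (limma, adjusted p = 0.0086; interval 0.83 to 1.81), because Rspo2 lowered C3 by less when Wnt3a was present. The same test gave the opposite sign for 3 other complement genes: -1.38 for C8g, -0.91 for Cfhr2 and -0.72 for Clu (adjusted p = 0.0079, 0.0028 and 0.019). Once slide was a term in the fit, none of the 4 passed at an adjusted p of 0.05, the values being 1.41, -1.59, -0.87 and -0.63.

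A signal appeared in data outside the comparisons: the first Cd55 probe read 55.8 intensity units and was well above background in Wnt3a replicate 3, where the BSA samples read 4.59 to 8.74 and were not. The other Wnt3a samples read 4.39 and 4.40.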

How the results depend on the processing

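Across 26 alternatives, C3 was lower than BSA in each treated group, with log2 changes of -2.29 to -1.83 with Rspo2, -3.23 to -2.74 with Wnt3a and -4.14 to -3.42 with both; its adjusted p passed in all but the methods' t-test after adjustment with Rspo2 (0.15). The number of genes called against BSA, 1, 2 and 3, became 0 with Rspo2 under that t-test, 1 with Wnt3a under normexp and under local background subtraction (Serping1 lost), 2 with both under these corrections (Serping1 lost again), 3 with Wnt3a (C1s gained) with the percentile over probes above background or any probe of a gene counted, 4 with both (C2 added, as higher, which is no test of a rise because only the combination brought C2 past the detection filter) under quantile normalization or with only the compared arrays, and 4, 5 and 5 with no 2-fold requirement. With arrays left out in turn it was 1 throughout, 2 throughout and 3 to 4 (C2 added without Rspo2 replicate 3). The counts of 0 for Wnt3a against Rspo2 and for both against Wnt3a (limma; 3 and 4 of the 7 genes at an unadjusted p under 0.05) became 3 and 3 with no 2-fold requirement and 0 to 1 with arrays left out. The interaction count of 1 (C3) became 0 under normexp and 0 with a term for slide.

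Normexp gave a background of -215 for BSA replicate 1 and -822 for Rspo2 replicate 2, against -10.5 to -2.29 elsewhere, so dim probes on those arrays were raised. Without the 2-fold requirement the counts under it were 1, 2 and 2 against BSA and 0 and 0 between treated groups. Under it the direction turned for Serping1 (0.10) and C4b (0.38) with Rspo2, for C2 with Wnt3a (-0.19) and both (-0.20), for the interactions of C2 (-0.79), C4b (-0.38), Serping1 (-0.26) and C1s (0.017), for C2 (-0.98) and C1r (0.08) between Wnt3a and Rspo2, and for C2 (-0.0075) and C4b (-0.0030) between both and Wnt3a. Fitted with slide as a term, C2 turned to -0.39, -0.73 and -1.13 against BSA, -0.33 and -0.40 between treated groups and -0.01 for the interaction, and the C1r interaction to -0.02; with arrays left out its Rspo2 change was -0.37 to 0.50. The C1s interaction, -0.0069, was 0.020 with quantile scaling, 0.10 with the percentile over probes above background, 0.17 with a slide term and -0.061 to 0.051 with arrays left out; the cause was not tested. Local background subtraction turned the interactions of C2 (-0.24) and Cfp (0.12) and the C2 difference between Wnt3a and Rspo2 (-0.06). That percentile moved the median of all probes to -0.12 for Wnt3a against BSA and 0.10 for the interaction. Probes called against BSA fell from 164, 573 and 1155 to 65, 146 and 500 with a slide term, 3, 35 and 330 under normexp and 24, 83 and 422 with local background subtraction.

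The replicate numbers did not pair the samples: deviations of the 18 same-numbered pairs of different groups correlated at -0.41 to 0.27 (median 0.01). With the replicate block the counts were 1, 2, 3, 0, 0 and 1 in the order above, as in the fit without it, and 120, 571 and 1149 probes were called. Without the 2-fold requirement 2, 5, 5, 0 and 1 genes were lower under the block, where the fit without it gave 4, 5, 5, 3 and 3.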
